A study of Mus musculus with 12 samples.

Results

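The 10 genes followed across the 4 groups of the study belong to the unfolded protein response and to the ATF4 stress response. They are *Hspa5*, *Hsp90b1*, *Xbp1*, *Atf4*, *Ddit3*, *Trib3*, *Chac1*, *Asns*, *Psat1* and *Phgdh*, taken by symbol as 10 of the 46731 genes in the deposited table. All 10 passed the limit on low values and were among the 12368 genes tested. RNA came from ATDC5 cells, a chondrogenic line from a mouse teratocarcinoma, carrying a lentiviral shRNA cassette with a puromycin resistance gene. The hairpin of shRNA-NC cells served as the control. In shRNA-*Ddx5* cells it targeted *Ddx5*, which encodes a DEAD-box RNA helicase. Cells of each line stood for 6 h without stimulation (here called medium) or with IL-1β at 5 ng/ml and TNF-α at 25 ng/ml (here called cytokines), with 3 biologically independent replicates in each of the 4 groups and 12 libraries in all. Both lines were selected with puromycin as stable lines, so every comparison between them rests on 1 line per hairpin, and whether a line was a clone or a pool is not given in the sources used here.

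When unfolded proteins collect in the endoplasmic reticulum (ER), the sensors IRE1, PERK and ATF6 switch on a shared programme. IRE1 splices the *Xbp1* mRNA, ATF6 is cut to release a transcription factor, and both raise chaperones such as HSPA5 (BiP) and HSP90B1 (GRP94). PERK phosphorylates the translation factor eIF2α, as do kinases that sense amino acid shortage, double-stranded RNA or heme shortage, and this favours translation of *Atf4* mRNA. ATF4 in turn raises *Ddit3* (CHOP), *Trib3*, *Chac1* and genes for making and importing amino acids. Cartilage cells secrete large amounts of collagen, and this pathway is known for its part in the handling of that load. A gene-level table does not separate spliced from unspliced *Xbp1*, and it does not show the translation of *Atf4*.

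The promoters that hold a known element of either arm are shown so that the genes can be read beside them. Sequences are from RefSeq on GRCm38.p6, in the direction of transcription, with capitals on the element. The stretch printed for *Trib3* surrounds its element and does not begin at the first base after the start. All 10 genes matched the promoter table, with 11 windows of 300 bases, 250 before the start and 50 after it. The ER stress element, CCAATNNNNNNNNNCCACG on either strand, was found in *Hspa5* and, as a pair of matches, in *Hsp90b1*, and in 0.119% of all 32851 promoters. The C/EBP-ATF response element, TGATGNAAN on either strand, was found in *Chac1*, *Asns* and *Trib3*, and in 3.95% of all promoters.
Hspa5, 250 bases before the start, plus strand, chr2:34771840-34772089, element at -65 to -47: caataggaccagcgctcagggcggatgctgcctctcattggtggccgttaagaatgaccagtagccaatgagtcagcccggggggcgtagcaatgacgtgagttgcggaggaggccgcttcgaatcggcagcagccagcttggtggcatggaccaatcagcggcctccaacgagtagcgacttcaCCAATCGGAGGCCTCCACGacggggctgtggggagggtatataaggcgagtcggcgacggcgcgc
Hsp90b1, 250 bases before the start, minus strand, chr10:86705445-86705694, elements at -212 to -194 and, on the opposite strand, at -107 to -89: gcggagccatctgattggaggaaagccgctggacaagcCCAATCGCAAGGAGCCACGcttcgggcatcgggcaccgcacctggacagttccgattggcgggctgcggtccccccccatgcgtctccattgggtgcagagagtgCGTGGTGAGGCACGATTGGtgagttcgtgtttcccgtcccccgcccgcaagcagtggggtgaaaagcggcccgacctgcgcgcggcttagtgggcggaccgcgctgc
Chac1, 250 bases before the start, plus strand, chr2:119350992-119351241, element on the opposite strand at -194 to -186: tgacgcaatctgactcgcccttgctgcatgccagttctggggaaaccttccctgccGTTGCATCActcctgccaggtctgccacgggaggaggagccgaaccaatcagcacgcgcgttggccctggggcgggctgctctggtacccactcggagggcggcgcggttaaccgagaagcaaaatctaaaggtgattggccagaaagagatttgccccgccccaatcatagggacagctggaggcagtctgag
Asns, 250 bases before the start, minus strand, chr6:7693210-7693459, element at -23 to -15: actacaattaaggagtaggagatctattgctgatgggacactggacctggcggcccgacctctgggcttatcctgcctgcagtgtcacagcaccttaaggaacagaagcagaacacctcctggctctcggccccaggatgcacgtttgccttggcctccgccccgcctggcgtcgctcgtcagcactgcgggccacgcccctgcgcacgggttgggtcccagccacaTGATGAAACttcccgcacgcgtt
Trib3, 29 bases after the start, minus strand, chr2:152344029-152344057, element on the opposite strand at 14 to 22: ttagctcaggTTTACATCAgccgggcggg

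The *Hsp90b1* promoter was added after its values were seen, since it holds the same element as *Hspa5* while its RNA differed in none of the comparisons. The ER stress element II (0.0365% of promoters), the unfolded protein response element (TGACGTGG, 0.676%) and the narrower C/EBP-ATF form (TGATGCAAT, 0.192%) were found in no window of the 10 genes. A match is a stretch of letters and not a measured site, and elements outside the window were not searched.

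The deposited values are FPKM, that is, fragment numbers scaled to gene length and library depth, and they can be compared between genes as levels per length. Fragment numbers were recovered from the steps between values, and 14119199 to 19276520 fragments per library lay on genes. For the 10 genes, the lowest count in any library was 246 fragments (*Trib3*) and the highest was 20472 (*Hspa5*). *Ddx5* stood at 32.3% of the control in medium and 32.1% with cytokines. Of 10 chondrogenic markers, 2 to 3 reached 1 FPKM in a group: *Sox9* averaged 27.5, 24.1, 8.76 and 5.40 FPKM in shRNA-NC medium, shRNA-*Ddx5* medium, shRNA-NC cytokines and shRNA-*Ddx5* cytokines, while the group means of *Acan* did not exceed 0.0243 FPKM. The markers summed to 40.1 to 45.2, 31.6 to 34.2, 13.1 to 18.3 and 10.6 to 10.7 FPKM in the same order. Its members did not move together: *Col2a1* averaged 12.4, 0.90, 6.33 and 0.78 FPKM, while *Col11a1* averaged 0.90, 4.78, 0.28 and 3.04 FPKM. Of the 4 markers tested, 1 rose and 1 fell after knockdown in medium, where 25.3% of all genes rose and 21.7% fell. After knockdown with cytokines 1 rose and 2 fell, where 23.5% of all genes rose and 22.1% fell. The cytokines lowered 4 in shRNA-NC and 3 in shRNA-*Ddx5* cells, where 15.2% and 13.5% of all genes fell. The part of these cells' chondrogenic state in the results was not tested. Of 10 markers of leukocytes, endothelium, epithelium, fat, muscle and neurons, *Ptprc*, *Cdh5*, *Epcam*, *Adipoq* and *Myod1* were at 0 in every library and *Tubb3* alone reached 1 FPKM. The list summed to 2.36 to 4.22, 5.57 to 6.69, 6.46 to 8.58 and 4.24 to 5.54 FPKM in the same group order. *Tubb3*, a neuronal tubulin, rose with cytokines in shRNA-NC cells (1.09 on the log2 scale) and after knockdown in medium (0.68), and it fell after knockdown with cytokines (-0.60). The difference of those knockdown effects was -1.28 and also passed the test, and the part of this marker in the results was not tested. Fewer cells of a type and less RNA per cell cannot be told apart in such bulk samples.

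One library of each shRNA-NC group stood apart in these genes. The cytokine replicate 1 had the highest *Hspa5*, *Hsp90b1*, *Xbp1*, *Atf4*, *Ddit3*, *Trib3*, *Asns*, *Psat1* and *Phgdh* of its group, and a mitochondrial share of 2.88% of fragments against at most 1.85% in the other two. Medium replicate 3, the library with the fewest fragments, had the lowest *Atf4*, *Ddit3*, *Trib3*, *Chac1* and *Phgdh* of its group but the highest *Hspa5*, *Hsp90b1*, *Xbp1* and *Asns*. Results that change without either library are given beside the values concerned, and the part of the mitochondrial share in them was not tested. That share also moved with the groups, at 1.81% to 2.05% in shRNA-NC medium, 2.16% to 2.83% in shRNA-*Ddx5* medium, 1.70% to 2.88% in shRNA-NC cytokines and 1.65% to 1.78% in shRNA-*Ddx5* cytokines.

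Differences were tested with limma on log2(FPKM + 1) over all 12368 genes in 1 fit of the 12 libraries, and a change was called at a Benjamini-Hochberg adjusted p under 0.05. All differences below are on that log2 scale, which understates changes of low genes, while ratios are those of mean FPKM. The comparisons share control libraries, so their values are set side by side and not counted as separate evidence. For 3 libraries against 3 the smallest p of an exact two-sided permutation test is 0.1, and the 31 comparisons of single genes without overlap between the groups all had this value.

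The cytokines raised 9 of the 10 genes in shRNA-NC cells, where 18.6% of all genes tested rose and 15.2% fell. The exception was *Hsp90b1*. The median difference of the 10 genes was 0.71, against 0.02 for all genes tested, and 9 of the 10 had groups without overlap (45.7% of all genes did). In shRNA-*Ddx5* cells the cytokines raised 4 of the 10 genes, namely *Atf4*, *Ddit3*, *Trib3* and *Chac1*, where 13.5% of all genes rose and 13.5% fell. The median difference there was 0.41, against 0.00 for all genes (0.000137), and 9 of the 10 had groups without overlap (47.3% of all genes). This count depended on single libraries: 7 of the 10 passed without shRNA-NC medium replicate 3, 6 without shRNA-NC cytokine replicate 1, and 2 without shRNA-*Ddx5* medium replicate 3. Over all genes tested, 1671 of 12368 rose in the fit used here. Without these libraries in turn, 1970 of 12253, 1871 of 12309 and 1196 of 12269 rose, so calls over all genes moved the same way. With only the 6 libraries compared, 7 of the 10 passed, where 1948 of 11665 genes rose. That fit changed the spread, which is otherwise pooled over both lines, and also the genes tested. The part of either was not tested. The mitochondrial shares of the 2 shRNA-*Ddx5* groups did not overlap, and their part in this comparison was not tested.

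The knockdown lowered *Ddit3*, *Trib3* and *Chac1* and raised *Phgdh* in medium, with 6 genes not past the threshold. Among all genes tested 21.7% fell and 25.3% rose in this comparison, and the 3 falls and 1 rise lie near that background. The mitochondrial share did not overlap between these groups either, with the knockdown libraries higher, and its part was not tested. With cytokines the knockdown lowered 6 of the 10 genes, *Hspa5*, *Xbp1*, *Ddit3*, *Trib3*, *Asns* and *Psat1*, where 22.1% of all genes fell and 23.5% rose. The median difference of the 10 genes was -0.18 in medium, against 0.03 for all genes, and -0.42 with cytokines, against 0.01. Groups were without overlap for 6 of the 10 genes in medium (53.5% of all genes) and for 7 with cytokines (61.6%). Without shRNA-NC cytokine replicate 1 the fall with cytokines held for 5 of the 10 genes. Quantile normalization moved the median in medium to -0.44 with 5 genes lower and 1 higher, and left 7 lower with cytokines. Over all genes, scaling choices moved the split of calls: 53.8% of the calls in medium were rises in the fit used here and 42.4% after scaling to the sum of fragments, and 55.1% of the cytokine calls in shRNA-NC cells were rises against 43.4% after quantile normalization and 42.2% after scaling to the sum. The split in shRNA-*Ddx5* cells was 49.97% against 39.0% after quantile normalization.

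**Figure D1:**
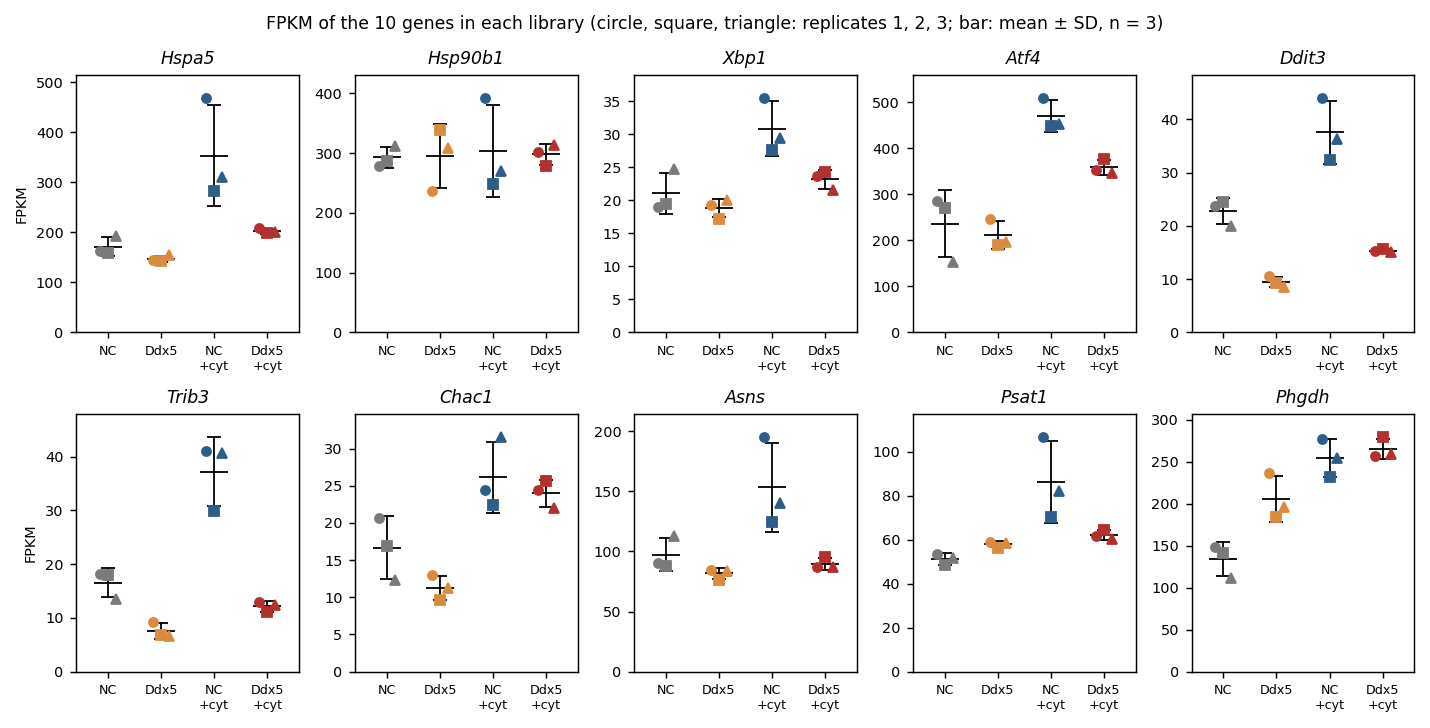
FPKM of the 10 genes in each library (y axis, linear from 0) for shRNA-NC and shRNA-*Ddx5* cells in medium (NC, Ddx5) and with cytokines (NC +cyt, Ddx5 +cyt); circles, squares and triangles are replicates 1, 2 and 3, and bars are the mean ± SD (n = 3). Cytokine-treated shRNA-NC libraries lie highest for *Xbp1*, *Atf4*, *Ddit3* and *Trib3*, replicate 1 stands above the other two for *Hspa5* at 469 FPKM, and *Hsp90b1* shows 4 overlapping groups.

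Levels spanned from *Hsp90b1* at 293 FPKM down to *Trib3* at 16.6 in shRNA-NC cells in medium. In between, *Atf4* stood at 236, *Hspa5* at 171, *Phgdh* at 134, *Asns* at 97.2, *Psat1* at 51.3, *Ddit3* at 22.8, *Xbp1* at 21.0 and *Chac1* at 16.7 FPKM. Neighbours in this order had overlapping libraries except *Hspa5* over *Phgdh*, *Asns* over *Psat1* and *Psat1* over *Ddit3*. In shRNA-*Ddx5* cells with cytokines *Atf4* led at 359 FPKM, *Chac1* (24.0) stood above *Ddit3* (15.3), and *Trib3* was again lowest at 12.2.

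*Hspa5* encodes BiP, the main HSP70 chaperone of the ER lumen and the repressor of its stress sensors (gene 14828, plus strand of chromosome 2, 34662102 to 34666541 on GRCm39, as for all gene positions here). Its FPKM in shRNA-NC cells was 163, 159 and 192 in medium and 469, 282 and 310 with cytokines. Knockdown libraries held 144, 143 and 154 in medium and 207.9, 198.0 and 201.3 with cytokines. Every cytokine library lay above every medium library of either line, and with cytokines every knockdown library lay below every control library. The means with cytokines were 354 ± 101 FPKM in the control line and 202 ± 5.04 FPKM in the knockdown line (SD, n = 3 each), the latter 57.2% of the former, and the difference of -0.77 (SE 0.16) had an adjusted p of 0.0023 by limma. Without shRNA-NC cytokine replicate 1 it was -0.54 (adjusted p = 0.0014). The rise with cytokines was 1.01 (adjusted p = 0.00061) in shRNA-NC cells, 0.79 without that library. In shRNA-*Ddx5* cells the difference was 0.46 (adjusted p = 0.052), and it passed the threshold when shRNA-NC medium replicate 3 (adjusted p = 0.044), cytokine replicate 1 (0.0027) or cytokine replicate 2 (0.035) of shRNA-NC was left out, with voom weights (0.032) and with only the 6 libraries compared (0.0024). In medium the knockdown difference was -0.21 (adjusted p = 0.293), but -0.49 (adjusted p = 0.020) after quantile normalization. *Rabepk*, on the other strand, overlaps *Hspa5* by 3596 bases. Strand use in counting is not stated, so reads of the pair could be shared, and *Rabepk* was listed at 5.14 to 9.38 FPKM.

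*Hsp90b1* encodes GRP94, the HSP90 chaperone of the same compartment, whose promoter above holds a pair of ER stress elements (gene 22027, minus strand of chromosome 10, 86526705 to 86541308). It stood at 279, 288 and 313 FPKM in shRNA-NC medium and 236, 340 and 309 in shRNA-*Ddx5* medium. With cytokines it stood at 393, 249 and 270 in shRNA-NC and 301, 278 and 314 in shRNA-*Ddx5* cells. All 4 groups overlapped. No difference passed the test, and the 95% interval ran from -0.38 to 0.37 for the knockdown in medium, from -0.38 to 0.38 for the knockdown with cytokines and from -0.35 to 0.40 for the cytokines in either line. Changes within these intervals are therefore not excluded, and the signs of these differences turned with scaling and with single libraries.

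*Xbp1* encodes the transcription factor of the IRE1 arm, itself a target of ATF6 (gene 22433, plus strand of chromosome 11, 5470641 to 5475993). It stood at 19.04, 19.40 and 24.67 FPKM in shRNA-NC medium and at 35.5, 27.7 and 29.4 with cytokines. The shRNA-*Ddx5* libraries held 19.24, 17.23 and 19.97 FPKM in medium and 23.7, 24.3 and 21.5 with cytokines. With cytokines the 2 lines did not overlap, while in medium they did. The knockdown difference was -0.39 (SE 0.12, adjusted p = 0.018 by limma) with cytokines and -0.15 (adjusted p = 0.332) in medium. The first was lost without shRNA-NC cytokine replicate 1 (-0.29, adjusted p = 0.067) or without shRNA-*Ddx5* cytokine replicate 3 (-0.34, adjusted p = 0.068). The cytokine difference was 0.53 (adjusted p = 0.0052) in shRNA-NC and 0.29 (adjusted p = 0.096) in shRNA-*Ddx5* cells, the latter past the threshold without shRNA-NC medium replicate 3 (0.047) and with only the 6 libraries compared (0.034).

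*Atf4* encodes the factor at the hub of the eIF2α arm (gene 11911, plus strand of chromosome 15, 80139385 to 80141746). Its FPKM in shRNA-NC cells was 286, 269 and 153 in medium and 509, 449 and 452 with cytokines. Knockdown libraries held 247, 191 and 196 in medium and 353, 376 and 346 with cytokines. The medium groups overlapped through shRNA-NC replicate 3, the lowest of all 12 libraries, and the cytokine groups did not overlap. *Atf4* rose with cytokines in both lines, by 1.04 (adjusted p = 0.0023 by limma) in shRNA-NC, a ratio of 1.99, and by 0.77 (adjusted p = 0.015) in shRNA-*Ddx5* cells, a ratio of 1.698. The second rise lost its call without shRNA-*Ddx5* medium replicate 2 (adjusted p = 0.054), medium replicate 3 (0.058) or cytokine replicate 2 (0.054). The knockdown difference was -0.12 (adjusted p = 0.668) in medium and -0.39 (SE 0.20, adjusted p = 0.138) with cytokines. Without shRNA-NC medium replicate 3 these were -0.40 (adjusted p = 0.019) and -0.39 (adjusted p = 0.012), while without shRNA-NC medium replicate 1 or 2 the first turned to 0.05 and 0.01. The difference with cytokines also passed after quantile normalization (-0.61, adjusted p = 0.016) and with only the 6 libraries compared (adjusted p = 0.0072).

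*Ddit3* encodes CHOP, the C/EBP-family factor that ATF4 raises and that is linked to cell death under lasting stress (gene 13198, plus strand of chromosome 10, 127126662 to 127132160). In medium it stood at 23.8, 24.6 and 20.1 FPKM in shRNA-NC and at 10.5, 9.22 and 8.58 in shRNA-*Ddx5* cells. With cytokines it stood at 44.0, 32.4 and 36.3 in shRNA-NC and at 15.4, 15.6 and 15.1 in shRNA-*Ddx5* cells. The 4 groups were all apart, and cytokine-treated knockdown cells held less *Ddit3* than untreated control cells. The knockdown left 41.4% of the control in medium (difference -1.19, SE 0.12, adjusted p = 1.7e-05 by limma) and 40.8% with cytokines (-1.23, SE 0.12, adjusted p = 1.3e-05). The cytokine rise was 0.69 (adjusted p = 0.001) in shRNA-NC and 0.65 (adjusted p = 0.0016) in shRNA-*Ddx5* cells, ratios of 1.65 and 1.63. All 4 calls held in every alternative and with each library left out. On the other strand *Ddit3* overlaps *Mars1* by 71 bases and *Mbd6* by 77 bases. *Mars1* rose by 0.46 in both knockdown comparisons, and *Mbd6* differed by 0.06 in medium and 0.39 with cytokines. Whether reads of these genes were shared with *Ddit3* was not tested.

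**Figure D2:**
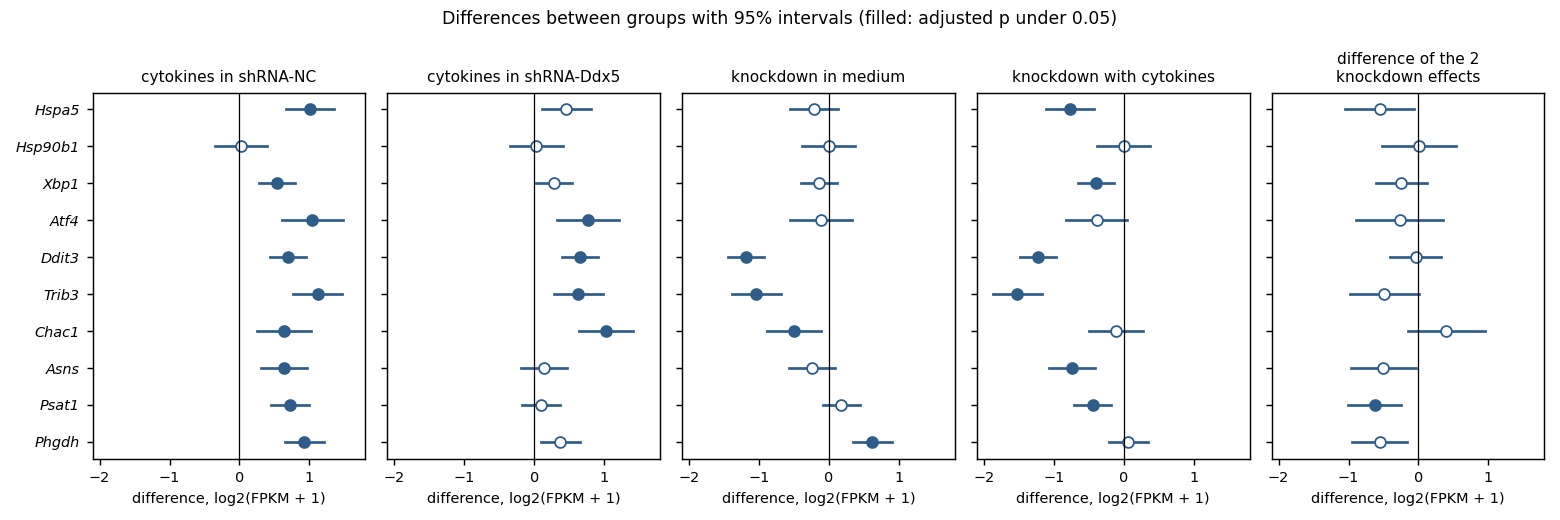
Differences between groups on the log2(FPKM + 1) scale (x axis) with 95% intervals from limma for the 10 genes (y axis), for the cytokines in each line, the knockdown in each medium and the difference of the 2 knockdown effects; filled points passed an adjusted p of 0.05. *Ddit3* and *Trib3* alone are filled left of 0 in both knockdown panels, *Phgdh* is filled right of 0 for the knockdown in medium, and all points but *Hsp90b1* are filled for the cytokines in shRNA-NC cells.

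*Trib3* encodes a pseudokinase induced by ATF4 and CHOP that feeds back on ATF4 (gene 228775, minus strand of chromosome 2, 152179345 to 152185980). Its FPKM in medium was 18.3, 18.0 and 13.5 in shRNA-NC and 9.25, 6.83 and 6.65 in shRNA-*Ddx5* cells. With cytokines it was 41.1, 29.9 and 40.7 in shRNA-NC and 13.1, 11.1 and 12.5 in shRNA-*Ddx5* cells. Knockdown libraries all lay below control libraries of the same medium, and even cytokine-treated knockdown libraries lay below the untreated control ones. The knockdown left 45.7% of the control in medium (-1.04, SE 0.16, adjusted p = 0.00034 by limma) and 32.7% with cytokines (-1.52, SE 0.16, adjusted p = 2.3e-05), and both calls held in every alternative and with each library left out. Cytokines raised it by 1.12 (adjusted p = 0.00032) in shRNA-NC and by 0.63 (adjusted p = 0.013) in shRNA-*Ddx5* cells. The latter call was lost without shRNA-*Ddx5* medium replicate 3 (adjusted p = 0.058) or cytokine replicate 1 (0.051).

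*Chac1* encodes a γ-glutamylcyclotransferase that breaks down glutathione (gene 69065, plus strand of chromosome 2, 119181723 to 119184807). It stood at 20.7, 17.0 and 12.3 FPKM in shRNA-NC medium and 12.9, 9.67 and 11.2 in shRNA-*Ddx5* medium. With cytokines the values were 24.4, 22.4 and 31.5 in shRNA-NC and 24.4, 25.6 and 21.9 in shRNA-*Ddx5* cells. The lines overlapped both in medium and with cytokines, and within each line the cytokine libraries lay above the medium libraries. The rise with cytokines was 1.03 (SE 0.18, adjusted p = 0.0012 by limma) in shRNA-*Ddx5* cells, a ratio of 2.13, and held in every alternative and leave-out. In shRNA-NC cells it was 0.63 (adjusted p = 0.017), and it lost its call without medium replicate 3 (0.44, adjusted p = 0.055) or cytokine replicate 3 (0.49, adjusted p = 0.071) of that line, and with only the 6 libraries compared (adjusted p = 0.057). The fall after knockdown in medium was 0.51 on the log2 scale (difference -0.51, adjusted p = 0.034) and was lost without shRNA-NC medium replicate 1 (adjusted p = 0.133) or 2 (0.088), without shRNA-*Ddx5* medium replicate 2 (0.112) or 3 (0.077), without the limit on low values (0.078) and with only the 6 libraries compared (0.071). With cytokines the knockdown difference was -0.11 (adjusted p = 0.651). Unlike *Ddit3* and *Trib3*, *Chac1* thus reached a level with cytokines, 24.0 ± 1.86 FPKM (SD, n = 3), that the test did not separate from the control level of 26.1 ± 4.79 (SD, n = 3), with a 95% interval of the difference from -0.49 to 0.28.

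*Asns* encodes asparagine synthetase, an enzyme gene long used as a readout of ATF4 (gene 27053, minus strand of chromosome 6, 7675165 to 7693209). In shRNA-NC cells it stood at 90.6, 88.0 and 113 FPKM in medium and at 195, 125 and 140 with cytokines. Knockdown libraries held 84.9, 76.4 and 83.6 in medium and at 87.2, 95.1 and 86.7 with cytokines. Every cytokine library of the control line lay above the other 9 libraries and the knockdown groups lay close to each other, at 81.6 ± 4.57 and 89.6 ± 4.70 FPKM (SD, n = 3). The cytokine difference was 0.63 (adjusted p = 0.0074 by limma) in shRNA-NC cells, but 0.45 without cytokine replicate 1 and 0.38 after quantile normalization (adjusted p = 0.015 and 0.043). The difference in shRNA-*Ddx5* cells was 0.13 (adjusted p = 0.55), and its sign turned under quantile normalization. With cytokines the knockdown left 58.5% of the control (-0.74, SE 0.15, adjusted p = 0.002), and -0.56 (adjusted p = 0.0033) without shRNA-NC cytokine replicate 1. In medium the difference was -0.24 (adjusted p = 0.208), but -0.51 (adjusted p = 0.0083) after quantile normalization.

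*Psat1* encodes phosphoserine aminotransferase, the enzyme of serine synthesis that follows PHGDH (gene 107272, minus strand of chromosome 19, 15882487 to 15902423). Its FPKM in medium was 53.5, 48.5 and 52.0 in shRNA-NC and 59.2, 56.5 and 58.6 in shRNA-*Ddx5* cells. With cytokines it was 107, 70.4 and 82.1 in shRNA-NC and 62.0, 64.6 and 60.3 in shRNA-*Ddx5* cells. Knockdown libraries were the higher ones in medium and the lower ones with cytokines, without overlap in either. The difference was 0.18 (adjusted p = 0.259 by limma) in medium, its sign turning under quantile normalization, and -0.45 (SE 0.12, adjusted p = 0.012) with cytokines. Without shRNA-NC cytokine replicate 1 the fall shrank to -0.28 (adjusted p = 0.019). Cytokines raised *Psat1* by 0.72 (adjusted p = 0.001) in shRNA-NC cells, and in shRNA-*Ddx5* cells the difference was 0.10 (adjusted p = 0.592).

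*Phgdh* encodes phosphoglycerate dehydrogenase, the entry enzyme of serine synthesis (gene 236539, minus strand of chromosome 3, 98220487 to 98247285). In medium it stood at 149, 142 and 111 FPKM in shRNA-NC and at 237, 185 and 197 in shRNA-*Ddx5* cells. With cytokines it stood at 277, 232 and 255 in shRNA-NC and at 258, 279 and 260 in shRNA-*Ddx5* cells. Untreated knockdown libraries lay above all untreated control libraries, and the cytokine groups overlapped. The rise after knockdown in medium was 0.62 (SE 0.13, adjusted p = 0.0023 by limma), a ratio of 1.54, and it was 0.35 (adjusted p = 0.017) after quantile normalization. With cytokines the difference was 0.06 (adjusted p = 0.717). Cytokines raised *Phgdh* by 0.93 (adjusted p = 0.00026) in shRNA-NC cells. The difference in shRNA-*Ddx5* cells was 0.37 (adjusted p = 0.051). It passed the threshold with voom weights (0.036), with only the 6 libraries compared (0.033), and without replicate 1 (0.048) or 3 (0.020) of shRNA-NC medium, replicate 1 of shRNA-*Ddx5* medium (0.019) or replicate 1 of shRNA-NC cytokines (0.046).

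Whether the knockdown acted differently in the 2 media was tested as the difference of its effects, with cytokines minus in medium. Among all genes 4.75% passed with a negative and 3.46% with a positive difference. Of the 10 genes *Psat1* alone passed, at -0.62 (SE 0.17, adjusted p = 0.049 by limma), and this call stood at the threshold: it was kept without shRNA-NC cytokine replicate 1 (0.034) or 2, and it was lost in the 10 other leave-outs (adjusted p from 0.063 to 0.122). The values were -0.56 for *Phgdh* (adjusted p = 0.087), -0.55 for *Hspa5* (0.162), -0.50 for *Asns* (0.18) and -0.49 for *Trib3* (0.217). For *Atf4* it was -0.27 (adjusted p = 0.61), for *Xbp1* -0.25 (0.41), for *Chac1* 0.40 (0.369), for *Ddit3* -0.04 (0.919) and for *Hsp90b1* 0.01 (0.993). *Hspa5*, *Xbp1* and *Asns*, which passed after knockdown with cytokines and not in medium, were therefore not shown to differ between the media.

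The rest of the pathway was followed in 7 lists of 94 genes, 89 of them tested. *Ero1b*, *Gdf15*, *Fgf21*, *Cbs* and *Slc7a3* did not pass the limit on low values, with highest values of 1.13, 0.65, 0.26, 0.27 and 0.58 FPKM. Cytokines raised 46 and lowered 6 of the 89 in shRNA-NC cells (median 0.39), and raised 22 and lowered 6 in shRNA-*Ddx5* cells (median 0.15). After knockdown 33 rose and 13 fell in medium (median 0.08), and 20 rose and 29 fell with cytokines (median -0.11). Over all genes tested the shares that rose and fell were 18.6% and 15.2% for the cytokines in shRNA-NC cells, 13.5% and 13.5% for those in shRNA-*Ddx5* cells, 25.3% and 21.7% for the knockdown in medium and 23.5% and 22.1% for the knockdown with cytokines. The 20 rises of 89 after knockdown with cytokines lie near that background. The genes named below come from a rule on size of change, and those whose call was lost in an alternative or leave-out are counted but not named.

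The list of sensors, kinases and eIF2 or eIF2B subunits held 17 genes. Of these 8 rose and 3 fell with cytokines in shRNA-NC cells, 5 rose in shRNA-*Ddx5* cells, and 5 rose and 2 fell after knockdown in each medium. The knockdown counts lie near or below the shares over all genes (25.3% and 21.7% in medium, 23.5% and 22.1% with cytokines). For the cytokines these shares were 18.6% and 15.2% in shRNA-NC cells, and 13.5% of all genes rose in shRNA-*Ddx5* cells. The count in shRNA-NC cells was 5 and 2 without medium replicate 2 of that line and 4 and 1 with only the 6 libraries compared, and the 5 rises in shRNA-*Ddx5* cells were 3 without their cytokine replicate 2. *Ppp1r15a* (GADD34), the CHOP target that guides dephosphorylation of eIF2α, stood at 27.5, 24.3 and 23.0 FPKM in shRNA-NC and 13.4, 8.83 and 12.5 in shRNA-*Ddx5* medium, and at 77.7, 57.8 and 58.9 and at 23.2, 24.7 and 21.1 with cytokines. Knockdown libraries were lower throughout. Its knockdown difference was -1.06 (adjusted p = 0.00022 by limma) in medium and -1.45 (adjusted p = 2.5e-05) with cytokines, and its cytokine rise was 1.34 (ratio 2.60) and 0.95 (ratio 1.99) in shRNA-NC and shRNA-*Ddx5* cells. *Eif2b1*, a subunit of the exchange factor of eIF2, rose after knockdown by 0.82 in medium and 0.59 with cytokines, and *Atf6b*, a relative of ATF6, by 0.74 and 0.82. *Eif2b3* rose by 0.65 in medium and by 0.74 with cytokines in shRNA-NC cells. The kinase gene *Eif2ak4* (GCN2) fell by 0.43 after knockdown in medium, and *Eif2ak2* (PKR) rose by 0.77 with cytokines in shRNA-*Ddx5* cells.

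Of 17 other ER chaperones and folding factors tested, 9 rose and 1 fell after knockdown in medium (median 0.41), and 6 rose and 2 fell with cytokines (median 0.19), against 25.3% and 21.7%, then 23.5% and 22.1%, of all genes. *Txndc5*, a disulfide isomerase, stood at 76.3, 78.6 and 68.8 FPKM in shRNA-NC and 224, 175 and 187 in shRNA-*Ddx5* medium, without overlap, and it rose by 1.37 in medium and 0.89 with cytokines. *P4hb*, the isomerase that is also a subunit of collagen prolyl 4-hydroxylase, rose by 0.76 and 0.74, and the BiP partner *Dnajb11* by 0.89 and 0.69. The opposite was seen in *Dnajb9* (ERdj4), an XBP1 target that represses IRE1. It stood at 13.4, 13.1 and 23.2 FPKM in shRNA-NC and 5.84, 6.18 and 7.14 in shRNA-*Ddx5* medium, and at 36.7, 16.5 and 19.3 and at 6.52, 6.57 and 6.23 with cytokines. The knockdown libraries were all lower, with a difference of -1.21 (adjusted p = 0.0032 by limma) in medium and -1.68 (adjusted p = 0.0004) with cytokines. Cytokines raised 6 of the 17 in shRNA-NC cells, among them *Manf* by 0.72 and *Hyou1* by 0.57, and 3 after quantile normalization. In shRNA-*Ddx5* cells 1 rose and 1 fell, between 0 and 3 rises and 0 and 2 falls when single libraries were left out. Among all genes 18.6% rose with cytokines in shRNA-NC cells, and 13.5% rose and 13.5% fell in shRNA-*Ddx5* cells.

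Among 14 genes of ER-associated degradation, 4 rose and 1 fell after knockdown in medium and 4 rose and 2 fell with cytokines, near or below the shares over all genes (25.3% and 21.7%, then 23.5% and 22.1%). The count in medium dropped to 1 rise without shRNA-NC medium replicate 2 or shRNA-*Ddx5* medium replicate 3, and after scaling to the sum of fragments. *Herpud1*, a stress-induced ubiquitin-like protein of the degradation complex, fell by 0.60 in medium and by 0.62 with cytokines, while *Sel1l*, the adaptor of the same complex, rose by 0.34 and 0.52. *Derl2* rose by 0.39 and *Edem1* fell by 0.38 after knockdown with cytokines. Cytokines lowered 3 of the 14 in shRNA-NC cells (1 without cytokine replicate 3 of that line) and 2 in shRNA-*Ddx5* cells (1 to 3 when single libraries were left out). These counts lie near the shares of all genes that fell, 15.2% and 13.5%. *Sel1l* fell by 0.41 in shRNA-NC cells and *Edem1* by 0.54 in shRNA-*Ddx5* cells.

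Of 10 other stress-induced factors tested, 1 rose and 4 fell after knockdown in medium (median -0.31), and 1 rose and 6 fell with cytokines (median -0.42), where 21.7% and 22.1% of all genes fell. Without shRNA-*Ddx5* medium replicate 3 3 of the 10 fell in medium. *Atf3*, a factor of the ATF family that ATF4 and CHOP raise, stood at 8.27, 8.42 and 7.98 FPKM in shRNA-NC and 3.85, 3.19 and 3.68 in shRNA-*Ddx5* medium. With cytokines it stood at 32.8, 22.1 and 24.2 and at 12.5, 13.1 and 11.6. The 4 groups were apart. The knockdown lowered it by a difference of -1.02 in medium (adjusted p = 7.5e-05 by limma) and -1.01 with cytokines (adjusted p = 7.3e-05), and the cytokines raised it by 1.55 in each line. *Nupr1*, a stress-induced chromatin protein, differed by -0.95 in medium, where the lines overlapped (54.9 FPKM in shRNA-NC replicate 3, 55.4 in shRNA-*Ddx5* replicate 1). With cytokines it differed by -1.36, without overlap. *Cebpb*, a C/EBP factor that inflammatory signals also raise, went the other way: it stood at 79.5, 129 and 101 FPKM in shRNA-NC and 250, 288 and 272 in shRNA-*Ddx5* cells with cytokines, a rise of 1.41 (adjusted p = 0.00018), after 44.5, 43.3 and 28.5 and 36.4, 27.3 and 28.3 FPKM in medium, where the lines overlapped. Cytokines raised 6 of the 10 in shRNA-NC cells (median 0.64), where 18.6% of all genes rose. They raised 6 and lowered 1, *Vldlr*, in shRNA-*Ddx5* cells (median 0.52), where 13.5% of all genes rose and 13.5% fell.

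Among 10 other genes of serine, one-carbon and amino acid synthesis tested, 8 rose after knockdown in medium (median 0.38, with 25.3% of all genes rising). After knockdown with cytokines 3 rose and 3 fell (median -0.02), near the shares over all genes (23.5% and 22.1%). Cytokines raised 9 in shRNA-NC cells (median 0.65), where 18.6% of all genes rose. In shRNA-*Ddx5* cells they raised 4 and lowered 1 (median 0.24), where 13.5% of all genes rose and 13.5% fell. The 1 fall among these genes was lost when any single shRNA-*Ddx5* library was left out. *Pycr1*, the proline synthesis enzyme of mitochondria, stood at 8.89, 8.49 and 5.97 FPKM in shRNA-NC and 24.6, 21.2 and 22.9 in shRNA-*Ddx5* medium, and rose by 1.46 (adjusted p = 4.9e-06 by limma) there and by 1.199 with cytokines. *Cth*, which makes cysteine from cystathionine, rose after knockdown by 0.90 and 0.69 and with cytokines by 1.02 and 0.82. *Gpt2*, the mitochondrial alanine aminotransferase, stood at 9.65, 9.06 and 9.29 FPKM in shRNA-NC and 8.91, 8.68 and 8.66 in shRNA-*Ddx5* medium, close in value, but at 19.4, 12.2 and 15.4 and at 6.37, 6.47 and 6.12 with cytokines. The difference with cytokines was -1.16 (adjusted p = 2.9e-05), and *Aldh18a1*, at the start of proline synthesis, differed by -0.73 (adjusted p = 1.6e-05).

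Of 8 amino acid transporters tested, 7 fell after knockdown with cytokines (median -0.49), where 22.1% of all genes fell. In medium 2 rose and 4 fell (median -0.26), where 25.3% of all genes rose and 21.7% fell. *Slc7a11*, the cystine carrier xCT, stood at 3.99, 4.43 and 3.73 FPKM in shRNA-NC and 0.92, 1.64 and 1.28 in shRNA-*Ddx5* medium, and at 31.2, 18.9 and 22.0 and at 7.69, 6.98 and 8.52 with cytokines. The groups were all apart. The cytokine ratio was 5.94 in shRNA-NC and 6.04 in shRNA-*Ddx5* cells (differences 2.28 and 1.95), while the knockdown left 31.6% of the control in medium and 32.2% with cytokines (-1.16, adjusted p = 0.00023, and -1.49, adjusted p = 3.7e-05). *Slc1a4* differed by -0.62 and -1.07, and *Slc38a2* by -0.50 and -0.61. *Slc7a1*, the arginine and lysine carrier, rose by 0.72 in medium and was not called with cytokines (adjusted p = 0.102). Cytokines raised 6 of the 8 in shRNA-NC cells (median 0.84), where 18.6% of all genes rose. They raised 4 and lowered 1 in shRNA-*Ddx5* cells (median 0.30), with 3 rises without shRNA-*Ddx5* medium replicate 3. There 13.5% of all genes rose and 13.5% fell.

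Of the cytosolic tRNA synthetases, which ATF4 also raises, 13 were listed and the others were not followed. Cytokines raised 11 of the 13 in shRNA-NC cells (median 0.48), where 18.6% of all genes rose. In shRNA-*Ddx5* cells they raised 2 (median 0.13, 1 to 3 when single libraries were left out), near the 13.5% of all genes that rose there. *Wars* rose by 0.86, *Gars* by 0.69, *Tars* by 0.66 and *Nars* by 0.54 in shRNA-NC cells, and *Nars* by 0.44 in shRNA-*Ddx5* cells. After knockdown 1 rose, *Mars1*, and 7 fell with cytokines (median -0.29, with 22.1% of all genes falling), with *Sars* at -0.55 and *Yars* at -0.44. In medium 4 rose and 1 fell (median -0.01), where 25.3% of all genes rose and 21.7% fell. After quantile normalization 3 rose and 5 fell there, and after scaling to the sum of fragments 4 rose and 4 fell. The 1 fall of the fit used here was lost, with 3 rises, without shRNA-NC medium replicate 1 or 2.

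**Figure D3:**
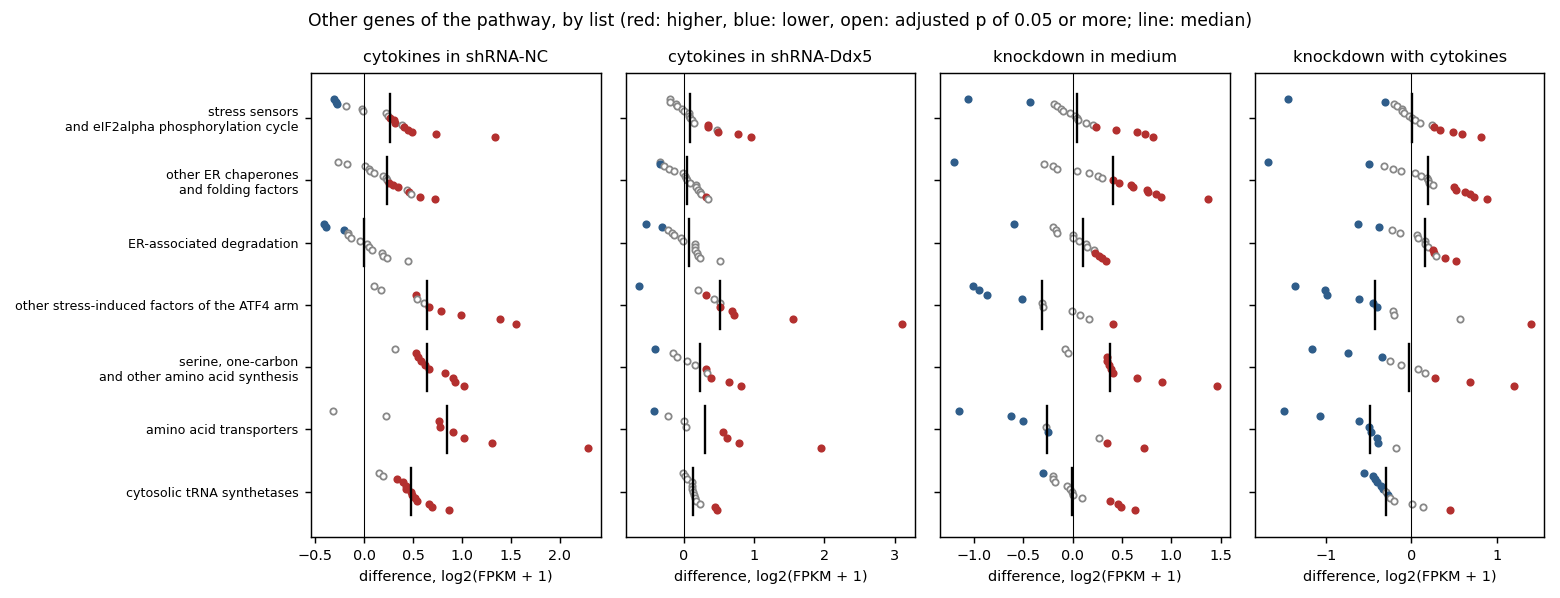
Differences on the log2(FPKM + 1) scale (x axis, scaled separately in each panel) for the 89 tested genes of the 7 other lists (y axis), for the cytokines in each line and the knockdown in each medium; red and blue points passed an adjusted p of 0.05 upward and downward, open points did not, and the black line is the median. tRNA synthetases, transporters and amino acid synthesis genes lie mostly right of 0 for the cytokines in shRNA-NC cells, with medians of 0.48, 0.84 and 0.65, and have medians of -0.29, -0.49 and -0.02 for the knockdown with cytokines.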

How the data were processed

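The authors aligned reads of poly-A RNA (the submitters' notes list HISAT2 2.0.5 and mm10, while chromosome names and positions in the table are those of GRCm39), counted fragments on genes with featureCounts, tested counts with DESeq2 1.20.0 and deposited FPKM per gene and library. In each library the product of FPKM and length rose in equal steps of 1 fragment (100% of values within 0.01), and the denominators were 0.957 to 1.08 times the sums. The deposited FPKM therefore already hold a scaling between libraries.

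Here log2(FPKM + 1) was fitted with limma 3.58.1 in R 4.3.3 (group means, eBayes with trend) for genes of at least 1 FPKM in at least 3 libraries, with Benjamini-Hochberg adjustment over all genes tested. The p-values measure the spread between the 3 replicates of a group, pooled over the 4 groups. Those for shRNA-*Ddx5* cells therefore also carry the spread of the shRNA-NC libraries. No batch or date is given. Members and lists were chosen with earlier results of these data known. From each list and comparison, up to 2 rises and 2 falls past the threshold without overlap were picked. A gene picked in any comparison was also given in others, where it could fall outside this rule. *Hsp90b1* among the promoters and *Aldh1l2* were additions. Alternatives were another pseudocount (0.1), limits on low values, scaling, voom weights, no trend, only the 6 libraries compared, a replicate block and each library left out. Replicate numbers were not taken as pairs of libraries in the fit used here. The promoter build (GRCm38.p6) differs from that of the gene positions. Figures were drawn in Python 3.11.15 with matplotlib 3.10.9.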

Additional observations from a re-analysis of the deposited data

Results flagged for a closer look

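The effect of the *Ddx5* knockdown differed between cytokines and medium by the test of the difference itself (limma with Benjamini-Hochberg adjustment) for 1 of the 10 genes and 11 of the 89 other pathway genes tested. Over all genes 4.75% passed with a negative and 3.46% with a positive difference, and 1 of 10 lies near that background. Differences are on the log2 scale, the knockdown effect with cytokines minus that in medium. *Psat1* stood at -0.62 (adjusted p = 0.049). It was kept without shRNA-NC cytokine replicate 1 or 2 and lost in the other leave-outs.

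*Cebpb* alone had a positive difference, 1.72 (adjusted p = 0.0038). The 10 negative ones were *Gpt2* at -1.08 (adjusted p = 0.0039), *Slc7a1* at -0.90 (0.00085), *Vldlr* at -0.81 (0.0135), *Wars* at -0.74 (0.0078), *Slc3a2* at -0.74 (0.0415), *Slc7a5* at -0.74 (0.0050), *Aldh1l2* at -0.71 (0.0152), *Gars* at -0.70 (0.0290), *Aldh18a1* at -0.68 (0.0023) and *Pdia4* at -0.56 (0.0397). *Aldh1l2* lies outside the naming rule and was added after its values were seen. *Pdia4*, *Slc3a2* and *Gars* lost the call in 9, 9 and 7 of the 12 leave-outs, with adjusted p up to 0.107, 0.107 and 0.0869. *Pdia4* and *Gars* also lost it with the replicate block (adjusted p = 0.051 and 0.054) and without the limit on low values (0.065 and 0.055), and *Slc3a2* with a pseudocount of 0.1 (0.051) and without that limit (0.081). *Pdia4* kept it only without an shRNA-NC cytokine library, *Slc3a2* without shRNA-NC medium replicate 1, shRNA-*Ddx5* medium replicate 2 or shRNA-NC cytokine replicate 2, and *Gars* without shRNA-NC medium replicate 3, shRNA-*Ddx5* medium replicate 2 or any shRNA-NC cytokine library.

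*Slc7a1* stood at 27.5, 28.2 and 27.6 FPKM in shRNA-NC and 46.4, 45.6 and 47.5 in shRNA-*Ddx5* medium, against 55.8, 47.0 and 56.8 and 49.8, 46.8 and 44.2 with cytokines, where the lines overlapped. *Vldlr* averaged 2.72 FPKM in shRNA-NC and 3.95 in shRNA-*Ddx5* medium, and 3.24 and 2.18 with cytokines.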

How the results depend on the processing

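The counts of members called in either direction after knockdown in each medium and with cytokines in shRNA-NC cells stayed within 1.5 times in every alternative and leave-out. The falls alone after knockdown in medium, 3, became 5 after quantile normalization and 2 to 4 when 1 library was left out. In shRNA-*Ddx5* cells the 4 rises with cytokines became 7 with only the 6 libraries compared, and 2 to 7 when 1 library was left out. Over all genes the 1671 rises of 12368 became 1948 of 11665 with the 6 libraries, and 1096 to 1970 in the leave-outs. The single call on the difference of the knockdown effects, *Psat1*, became 0 with a pseudocount of 0.1, without the limit on low values, with 1 FPKM required in every library and without the trend, became 2 after quantile normalization, and was 0 to 1 when 1 library was left out. The causes were not tested.

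With the replicate block this count was 0 (*Psat1*, adjusted p = 0.061), and the block changed no other call of the 10 genes. It took the synthetases raised and the degradation genes lowered by cytokines in shRNA-*Ddx5* cells from 2 to 1 each, and it ended the calls of *Pdia4* and *Gars* on the difference of effects (adjusted p = 0.051 and 0.054). Deviations from the group means correlated at 0.043 to 0.448 (mean 0.268) between same-numbered libraries of the 2 lines in medium. The mean for other numbers there was -0.143. With cytokines the means were 0.005 and -0.0023. Between medium and cytokines the same-number mean was -0.178 in shRNA-NC and -0.087 in shRNA-*Ddx5* cells. The numbers were not taken as pairs, and whether the libraries in medium were paired was not tested.

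Signs turned for differences that were not called. After quantile normalization these were *Hsp90b1* (-0.18 and -0.22 for the cytokines in shRNA-*Ddx5* and shRNA-NC cells, -0.22 for the knockdown with cytokines), *Asns* (-0.012) and *Psat1* (-0.029) for the cytokines in shRNA-*Ddx5* cells, *Psat1* (-0.023) for the knockdown in medium, *Phgdh* (-0.19) for the knockdown with cytokines and *Ddit3* (0.019) for the difference of effects. Scaling to the sum of fragments turned *Hsp90b1* (-0.014, -0.061 and -0.057 in the same order) and *Ddit3* (0.0016), and voom weights turned *Ddit3* (0.00046) and *Hsp90b1* for the knockdown with cytokines (-0.00073).

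With 1 library left out, *Hsp90b1* ran from -0.12 to 0.14 and from -0.18 to 0.15 for the cytokines in shRNA-*Ddx5* and shRNA-NC cells, from -0.11 to 0.15 and from -0.13 to 0.20 for the knockdown in medium and with cytokines, and from -0.15 to 0.20 for the difference of effects. *Atf4* ran from -0.40 to 0.049 for the knockdown in medium and from -0.44 to 0.015 for the difference of effects, and *Ddit3* from -0.14 to 0.078 for the latter. For the knockdown with cytokines *Phgdh* ran from -0.0015 to 0.13 and *Chac1* from -0.21 to 0.031. Of 130 calls of named pathway genes 94 held throughout, 33 were lost in a leave-out and 25 in another alternative.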
